A study of Mus musculus with 20 samples.

Results

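Transcripts of 9 genes of the transforming growth factor beta (TGF-beta) pathway were measured in 20 Her2/neu-driven breast tumors. The genes were the ligands Tgfb1, Tgfb2 and Tgfb3, the receptors Tgfbr1, Tgfbr2 and Tgfbr3, the inhibitory Smad gene Smad7, and the induced genes Ctgf and Tgfbi. They were taken by name from a table of 43346 genes, each name matched 1 row, and all 9 passed the filter on low counts that left 18883 genes. All tumors came from female [BALB/c-neuT x FVB/J] F1 mice of up to 20 weeks of age, 1 tumor per mouse. The mice were hemizygous for the rat neuT oncogene, which came from the BALB/c father and was driven by the MMTV promoter. No tumor was treated, no normal mammary tissue was included here, and RNA came from small frozen pieces that hold tumor and host cells together. Sample names place 9 tumors in Lo and 11 in Hi, a label whose meaning neither the labels nor the study's text gives, and values are therefore given for both.

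TGF-beta ligands are secreted in a latent form bound to latent TGF-beta binding proteins and the matrix, and are freed by integrins, thrombospondin and proteases. The active dimer binds the type II receptor (Tgfbr2), which phosphorylates the type I receptor (Tgfbr1), with Tgfbr3 (betaglycan) as a co-receptor that presents ligand. The type I receptor phosphorylates Smad2 and Smad3, which enter the nucleus with Smad4, while Smad7 blocks the type I receptor and is itself induced by the pathway. In the mammary gland TGF-beta restrains epithelial growth, and in tumors it is also known for matrix deposition and for its effects on fibroblasts and leukocytes.

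Each tumor had between 38765682 and 65465755 counts on genes, and the counts of single TGF-beta genes ran from 446 (Tgfb2) to 13019 (Tgfb3). Ribosomal RNA locus genes held 6.29% to 27.7% of a tumor's counts. Neither this share nor the total count was related to any of the 9 genes at an adjusted p under 0.05, where 0.0424% and 0.0% of all genes passed. The labelled tissue was checked against its markers, and 8 epithelial genes (Epcam, Krt8, Krt18, Krt19, Cdh1, Cldn3, Cldn7, Elf3) summed to between 2699.8 and 4313.0 CPM (counts scaled by library size and TMM factor), against 106.8 to 357.0 CPM for 8 fibroblast genes, 367.7 to 755.0 CPM for 8 macrophage genes and 9.92 to 16.4 CPM for 8 T cell genes. Single genes weighed heavily in the macrophage and T cell sums. Cd14 had a median of 182.3 CPM, and Cd247 had 7.59 CPM against 0.263 CPM for Cd3e. In RNA from tissue pieces, fewer cells of a type and less RNA per cell cannot be told apart.

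All 9 genes were expressed in every tumor. Levels were compared between genes as RPKM (counts divided by the gene length listed in the table and by the total of the tumor). Tgfb3 had the highest level, 46.5 ± 10.3 RPKM (SD, n = 20), followed by Tgfbr2 at 29.9 ± 4.72, Tgfb1 at 23.1 ± 4.0, Ctgf at 20.4 ± 3.93, Tgfbr3 at 9.13 ± 1.63, Tgfbi at 7.91 ± 2.49, Tgfbr1 at 7.83 ± 1.44, Smad7 at 5.92 ± 0.838 and Tgfb2 at 2.64 ± 0.574 RPKM. Of the 8 neighboring pairs in this order, 2 did not overlap: Ctgf lay above Tgfbr3, and Smad7 above Tgfb2, in 20 of 20 tumors. The other neighbors overlapped, and Tgfbi exceeded Tgfbr1 in 9 of 20 tumors.

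**Figure D1:**
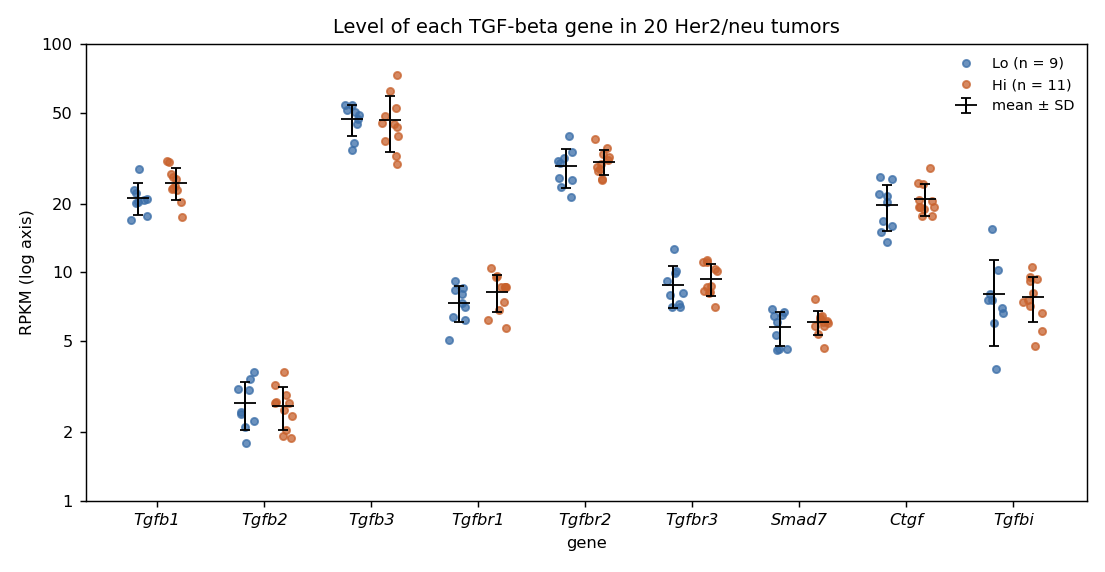
Level of each TGF-beta gene in RPKM on a log axis, with 1 point per tumor, Lo tumors (n = 9) in blue and Hi tumors (n = 11) in orange, and black marks for the mean ± SD of each label. Tgfb3 is the highest ligand and Tgfbr2 the highest receptor, and the Lo and Hi points overlap for all 9 genes.

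Tgfb3 was the predominant ligand transcript. It made up 63.9% ± 5.86 (SD, n = 20) of the summed RPKM of the 3 ligands, Tgfb1 32.4% ± 5.99 and Tgfb2 3.68% ± 0.750. Tgfb3 exceeded Tgfb1 in 19 of 20 tumors, with a Tgfb3 to Tgfb1 ratio of RPKM between 0.965 and 3.0 (median 2.11). The exception was tumor Hi 1, in which Tgfb1 held 49.0% and Tgfb3 47.3%. Tgfb3, which is expressed in mammary epithelium and in many mesenchymal tissues, ranged from 95.8 CPM in Hi 1 to 250.03 CPM in Hi 8. In the Lo tumors its lowest, median and highest values were 107.5, 177.5 and 197.7 CPM, and in the Hi tumors 95.8, 136.5 and 250.03 CPM. The Hi tumors thus held both the lowest and the highest value. Tgfb1, the main ligand of immune cells and platelets, ranged from 43.8 CPM in Hi 5 to 78.9 CPM in Hi 8. Its lowest, median and highest values were 45.4, 53.4 and 78.8 CPM in Lo, and 43.8, 62.2 and 78.9 CPM in Hi. Tgfb2 ranged from 9.60 CPM in Lo 8 to 23.3 CPM in Lo 4, with 9.60, 15.7 and 23.3 CPM in Lo and 10.3, 14.8 and 19 CPM in Hi.

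**Figure D2:**
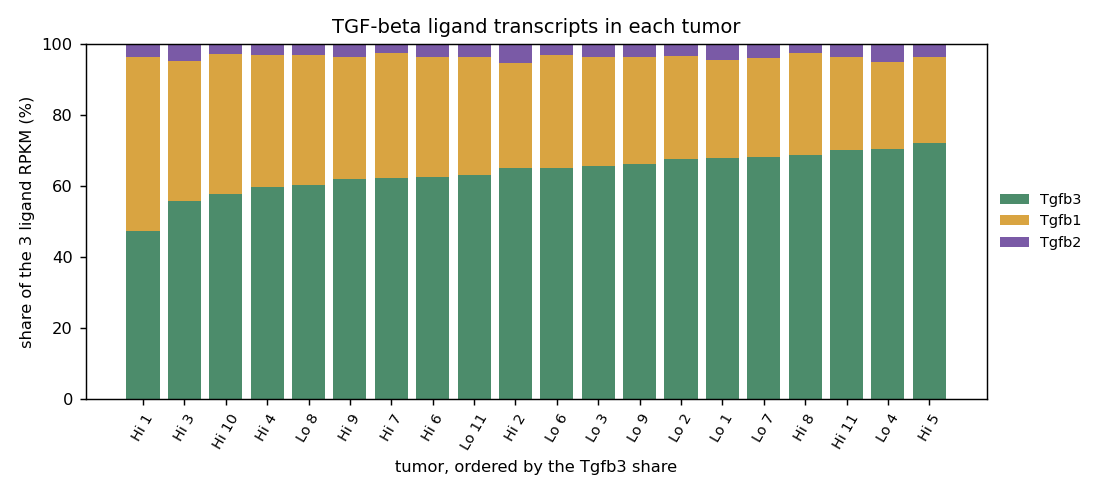
Share of each ligand in the summed RPKM of Tgfb1, Tgfb2 and Tgfb3, in percent, with 1 bar per tumor ordered by the Tgfb3 share. Tgfb3 holds from 47.3% (Hi 1) to 72.2% (Hi 5), and Tgfb2 from 2.53% to 5.33%.

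Among the receptors, the ligand-binding kinase Tgfbr2 made up 63.7% ± 3.69 (SD, n = 20) of the summed RPKM, the co-receptor Tgfbr3 19.5% ± 2.90 and the signaling kinase Tgfbr1 16.8% ± 2.55. Tgfbr2 exceeded both other receptors in 20 of 20 tumors, and Tgfbr3 exceeded Tgfbr1 in 15. Tgfbr2 ranged from 111.1 CPM in Lo 3 to 179.4 CPM in Hi 5, Tgfbr1 from 35.7 CPM in Hi 1 to 61.7 CPM in Lo 4, and Tgfbr3 from 46.7 CPM in Hi 6 to 76.6 CPM in Lo 8. A different tumor was lowest for each receptor, and the same held for the highest.

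Most of these genes varied more between tumors than other genes of like abundance. The SD of log2 CPM over the 20 tumors lay between 0.164 (Smad7) and 0.390 (Tgfbi), while counting alone gives between 0.0160 and 0.0514 at the mean counts of these genes. The SD was above the median of the 1000 genes nearest in abundance for 8 of 9 genes, and Smad7 was the exception. Among those 1000 neighbors the SD of Tgfb3 ranked at percentile 95.8, Tgfbi at 93.4, Ctgf at 91.2, Tgfb1 at 87.7, Tgfbr1 at 83.8, Tgfb2 at 82.9, Tgfbr3 at 78.5, Tgfbr2 at 56.4 and Smad7 at 40.9. The highest tumor exceeded the lowest by 3.32 times for Tgfbi, 2.61 times for Tgfb3 and 2.43 times for Tgfb2, and by 1.54 times for Smad7.

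Lo and Hi tumors did not differ detectably in any of the 9 genes. The largest log2 fold changes (Lo minus Hi) were 0.15 (standard error 0.135) for Tgfb2, at 16.2 ± 3.85 CPM in Lo (SD, n = 9) and 14.6 ± 2.94 in Hi (SD, n = 11), and -0.12 (standard error 0.111) for Tgfb1, at 56.5 ± 11.2 CPM in Lo and 61.5 ± 10.7 CPM in Hi. Single tumors moved these values by over 1.5 times: Tgfb2 had 0.07 without Lo 4, and Tgfb1 had -0.19 without Lo 11 and -0.08 without Hi 8. Without Lo 4 the change of Tgfbr1 was -0.11, and without Hi 8 that of Tgfb3 was 0.20, in both cases the largest of the 9. The adjusted p of edgeR's quasi-likelihood test with Benjamini-Hochberg adjustment was 0.9996 for all 9 genes, and the values overlapped for all 9. Of the 18883 genes tested, 0 were called, or 0.0%, and 1045 had an unadjusted p under 0.05. DESeq2 called 1 gene, Serpina3g, a serine protease inhibitor outside the pathway, at a log2 fold change of 1.20 (adjusted p = 0.0220).

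Whether the 9 genes rose and fell together from tumor to tumor was tested with Pearson's r of log2 CPM over the 20 tumors, with 100000 permutations and Benjamini-Hochberg adjustment over the 9 genes times all other genes tested. Only Tgfbr2 and Tgfbi, which codes for a secreted matrix protein induced by TGF-beta, passed, as 1 of 36 pairs, where 0.301% of all 169938 relations of these genes passed. The pair had r = 0.78 (95% interval 0.513 to 0.908, permutation p = 6e-05, adjusted p = 0.0338) and Spearman's rho = 0.774 (permutation p = 0.00011, adjusted p = 0.0599). Tgfbi was lowest in Lo 3 at 10.9 CPM, where Tgfbr2 was also lowest, and highest in Lo 1 at 36.4 CPM, where Tgfbr2 had 165.8 CPM. In the Lo tumors Tgfbi had 10.9, 19.6 and 36.4 CPM at its lowest, median and highest, and in the Hi tumors 13.3, 20.5 and 26.3 CPM. The labels overlapped, and r was 0.835 within Lo and 0.719 within Hi. When the 2 tumors farthest from the median of Tgfbr2 were left out, r was 0.724 (adjusted p = 0.134). With the fibroblast score removed from both genes it was 0.747 (adjusted p = 0.0509).

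Tgfbr2 and Tgfbi lie on different chromosomes, at 116087698 to 116175363 of chromosome 9 and 56609603 to 56639339 of chromosome 13 (mm10, as listed in the count table). The 250 bases before their RefSeq starts (GRCm38.p6, the same assembly) are shown because these were the only genes of the 9 called as moving together. Capitals mark the Smad-binding letters CAGAC on either strand and GAGGAA, a core that ETS factors bind, on either strand.
Tgfbr2, chr9:116175364-116175613, minus strand: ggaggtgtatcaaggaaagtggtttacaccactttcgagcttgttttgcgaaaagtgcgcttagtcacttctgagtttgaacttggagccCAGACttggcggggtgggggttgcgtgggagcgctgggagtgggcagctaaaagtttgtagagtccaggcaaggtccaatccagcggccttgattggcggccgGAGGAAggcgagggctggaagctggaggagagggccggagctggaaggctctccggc
Tgfbi, chr13:56609336-56609585, plus strand: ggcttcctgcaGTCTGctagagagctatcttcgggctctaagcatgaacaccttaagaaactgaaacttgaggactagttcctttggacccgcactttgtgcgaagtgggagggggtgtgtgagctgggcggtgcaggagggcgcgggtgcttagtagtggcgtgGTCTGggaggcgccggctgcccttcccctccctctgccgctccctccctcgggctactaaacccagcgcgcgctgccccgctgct
In windows of 300 bases from 250 before to 50 after the start, CAGAC occurred once upstream of Tgfbr2 and at 2 places upstream of Tgfbi, and 49.6% of 32851 RefSeq promoter windows hold it. Of these 2 genes GAGGAA occurred in the Tgfbr2 window, against 28.3% of all windows, and neither gene held the AP-1 letters TGANTCA (7.81% of windows) or the TATA letters TATAAA (13.6%). The GC box letters GGGCGG were at 2 places in the Tgfbi window and in none for Tgfbr2 (35.7% of windows). Of the other genes, Tgfb1, Tgfb2 and Tgfbr1 had entries, and Tgfb3, Tgfbr3, Smad7 and Ctgf were not looked up elsewhere. Tgfb2 held CAGAC at 2 places, GAGGAA at 1 and TATAAA at 1, and Tgfb1 held GGGCGG at 6 places and none of the other letters. Tgfbr1 has 2 entries, of which 1 held GGGCGG at 2 places and the other held CAGAC and GAGGAA at 1 place each, so that these letters are not particular to Tgfbr2 and Tgfbi.

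The remaining 35 pairs did not pass. Of all 36 pairs, 7 had an unadjusted p under 0.05, of which 4 were positive and 3 negative, and the 3 negative ones all held Smad7. Smad7 had r = -0.65 with Tgfbi (permutation p = 0.00235, adjusted p = 0.124), r = -0.58 with Tgfb2 (adjusted p = 0.186) and r = -0.48 with Tgfb3 (adjusted p = 0.300). Their rho was -0.701, -0.644 and -0.516. On log2(RPKM + 1) the values were -0.142 for Tgfbi (adjusted p = 0.819), -0.379 for Tgfb2 and -0.514 for Tgfb3. With DESeq2 size factors r of Smad7 with Tgfbi was -0.659 (adjusted p = 0.116), so that not every change of scale weakened it. Why it was weaker on log2(RPKM + 1) was not tested. The positive ones beside the called pair joined Tgfb2 with Tgfb3 (r = 0.59, rho = 0.701, adjusted p = 0.167), with Tgfbi (r = 0.55, adjusted p = 0.217) and with Tgfbr1 (r = 0.53, adjusted p = 0.239). Smad7 itself ranged from 21.4 CPM in Hi 6 to 33.0 CPM in Hi 1. Its lowest, median and highest values were 22.7, 25.9 and 32.9 CPM in Lo, and 21.4, 25.9 and 33.0 CPM in Hi. Tgfb1 had r = 0.24 with Tgfb3 (95% interval -0.232 to 0.614), which ranged from 0.069 without Hi 8 to 0.450 as single tumors were left out, and r = -0.07 with Tgfb2 (95% interval -0.494 to 0.388). Intervals of this width do not settle whether Tgfb1 moves with the other ligands.

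**Figure D3:**
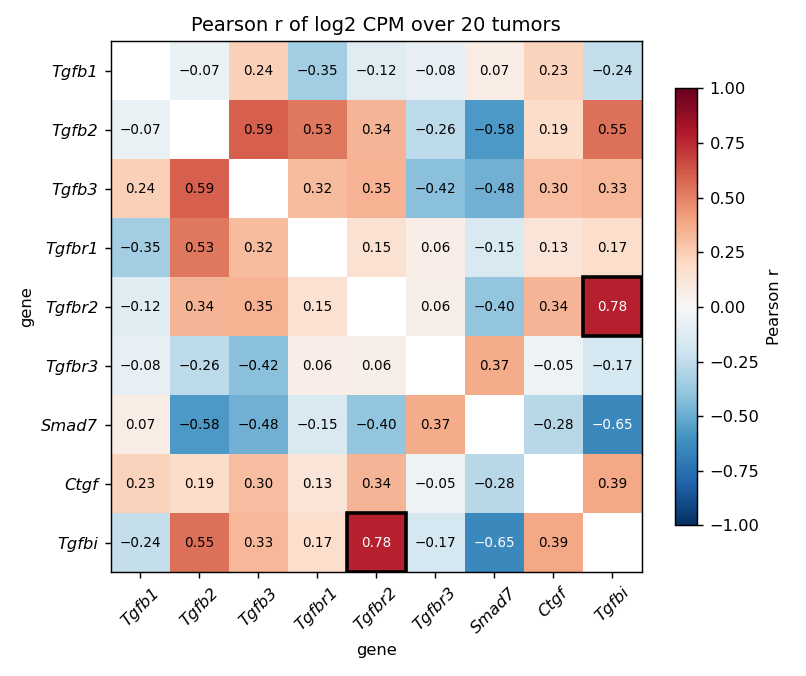
Pearson r of log2 CPM over the 20 tumors for each pair of TGF-beta genes, red for positive and blue for negative values, with the called pair framed. The frame holds Tgfbr2 and Tgfbi (r = 0.78), and the most negative value joins Smad7 and Tgfbi (r = -0.65).

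The 9 genes were then set against scores of 9 cell type marker lists, each the mean z-score of up to 8 genes. At an adjusted p under 0.05, 2 of 81 relations passed, where 0.62% of all 169947 relations between a score and a gene passed. Tgfbi rose with the macrophage score (Csf1r, Cd68, Adgre1, Mrc1, Fcgr1, C1qa, C1qb, Cd14), at r = 0.86 (95% interval 0.673 to 0.943, permutation p = 1e-05, the smallest that the permutations can give, adjusted p = 0.0072) and rho = 0.838 (adjusted p = 0.0197). This score was lowest in Lo 3 (-1.63) and Hi 4 (-1.25), which also had the lowest Tgfbi, at 10.9 and 13.3 CPM, and highest in Hi 6 (1.12), with 24.8 CPM. Within Lo r was 0.907, within Hi 0.828, and without the 2 farthest tumors 0.746 (adjusted p = 0.125). Of all genes, 0.635% were called against this score.

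The same score had r = 0.74 with Tgfbr2 (adjusted p = 0.0515), r = -0.70 with Smad7 (adjusted p = 0.0657), r = 0.69 with Tgfb2 (adjusted p = 0.0752, rho = 0.795 with an adjusted p of 0.0221) and r = 0.56 with Tgfb3 (adjusted p = 0.233). With Lo and Hi means removed, Tgfbr2 passed with r = 0.739 (adjusted p = 0.0453), and on log2(RPKM + 1) with r = 0.820 (adjusted p = 0.00787), where Smad7 had r = -0.120. After removal of the macrophage score from both genes, r between Tgfbr2 and Tgfbi was 0.421, between Smad7 and Tgfbi -0.121, between Tgfb2 and Tgfbi -0.135, between Tgfb2 and Smad7 -0.174 and between Tgfb2 and Tgfb3 0.344, values that were added after the data were seen and were not tested. Whether macrophage content contributes to these relations was not tested.

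Tgfb3 rose with the epithelial score, at r = 0.75 (95% interval 0.460 to 0.895, permutation p = 0.00016, adjusted p = 0.0353) and rho = 0.786 (adjusted p = 0.0275). The score was highest in Hi 11 (1.32) and Lo 11 (1.28), where Tgfb3 had 213.6 and 197.7 CPM, and lowest in Hi 3 (-1.15) and Hi 4 (-1.01), where it had 103.2 and 133.1 CPM. The tumor with the highest Tgfb3, Hi 8, had an epithelial score of 0.63. Within Lo r was 0.784, within Hi 0.747, and without the 2 farthest tumors 0.710 (adjusted p = 0.222). The call was also lost on log2(RPKM + 1), at r = 0.552. Of all genes, 0.895% were called against this score. In the tumors named here the macrophage score was 0.83 (Hi 11), 0.79 (Lo 11), -0.34 (Hi 3), -1.25 (Hi 4) and 0.35 (Hi 8). Each had the sign of the epithelial score. The signs differed only in Lo 1 (macrophage 0.76, epithelial -0.14), Lo 6 (-0.10 and 0.18), Hi 7 (-0.31 and 0.10) and Hi 9 (0.31 and -0.23). In all other tumors they were the same. Tgfb2 had r = 0.62 with the epithelial score (adjusted p = 0.152, rho = 0.675). Tgfb3 had rho = 0.707 with the macrophage score (adjusted p = 0.0799). The macrophage and epithelial scores thus shared their sign in most tumors, and they cannot be taken as separate readings of cell types. Their correlation with each other was not tested.

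Ctgf, a matricellular protein made by many stromal cells, ranged from 43.1 CPM in Lo 2 to 82.1 CPM in Lo 4, with a median of 55.1 CPM in Lo and 53.6 CPM in Hi. It had r = 0.64 with the endothelial score (adjusted p = 0.141), r = 0.62 with the adipocyte score (adjusted p = 0.162) and r = 0.61 with the fibroblast score (adjusted p = 0.164), none of which passed. Tgfb1, Tgfbr1, Tgfbr3 and Smad7 passed with none of the 9 scores.

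**Figure D4:**
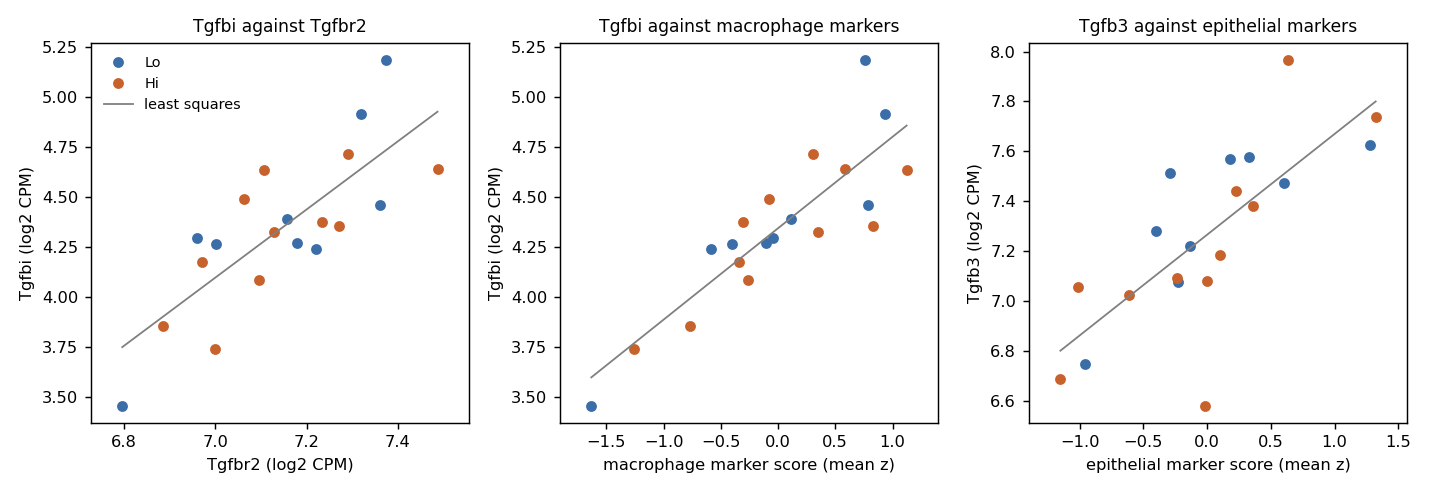
Tgfbi against Tgfbr2 (left) and against the macrophage marker score (middle), and Tgfb3 against the epithelial marker score (right), with 1 point per tumor, genes in log2 CPM, scores as mean z-scores, Lo in blue, Hi in orange and a least-squares line in gray. Both labels follow each line, with r = 0.78, 0.86 and 0.75 over the 20 tumors.

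Tumors of this model gain and lose chromosomes, and each gene was therefore set against the expression dosage of its own chromosome, the median over the other genes of that chromosome of their log2 CPM relative to the gene median. Here 11.7% of 18228 autosomal genes passed in either direction and 10.9% with a positive r, so that 2 of 9 TGF-beta genes is a share read against that background. Tgfbr1 (47353222 to 47414931 of chromosome 4) rose with chromosome 4 dosage, at r = 0.68 (95% interval 0.339 to 0.863, adjusted p = 0.0151) and rho = 0.782 (adjusted p = 0.00721), with a slope of 1.27 (standard error 0.322) log2 units per log2 unit of dosage. The dosage of chromosome 4 was lowest in Lo 2 (-0.21), with 36.6 CPM of Tgfbr1, and highest in Hi 5 (0.37), with 61.0 CPM. The lowest Tgfbr1 value, 35.7 CPM, was in Hi 1, with a dosage of -0.13. Dosage is relative to the median of these tumors and not to a normal copy number. A loss shared by all tumors would not show in it. By karyotype, the authors report loss of the same chromosome, whole or in part, in every tumor of this model they examined. They also report skewed alleles along it in the sequenced tumors. The chromosome lost is the one that holds Tgfbr1. A high dosage, as in Hi 5, therefore need not be a gain. In the Lo tumors the lowest, median and highest Tgfbr1 values were 36.6, 52.0 and 61.7 CPM, and in the Hi tumors 35.7, 56.9 and 61.1 CPM. Within Lo r was 0.697 and within Hi 0.659, and without the 2 farthest tumors 0.617 (adjusted p = 0.106). A positive relation passed for 38.2% of the genes of chromosome 4. Tgfbr1 also had r = 0.49 with the total count of a tumor (adjusted p = 0.533), and the part of depth in this relation was not tested.

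Tgfb2 (186622792 to 186705989 of chromosome 1) had r = 0.65 with chromosome 1 dosage (95% interval 0.296 to 0.850, adjusted p = 0.0199; 17.9% of the genes of chromosome 1 passed with a positive r) and rho = 0.498 (adjusted p = 0.152), and the relation rests on a pair of tumors. Chromosome 1 dosage was -0.30 in Lo 8, -0.23 in Hi 7 and -0.13 in Hi 5, and between -0.04 and 0.07 in the other 17 tumors. Tgfb2 had 9.60 CPM in Lo 8 and 10.3 CPM in Hi 7, its 2 lowest values, but 15.2 CPM in Hi 5, and 10.8 CPM in Hi 10, whose dosage was -0.04. Without Lo 8 and Hi 7, the tumors farthest from the median dosage, r was 0.286 (adjusted p = 0.579). The other 7 genes did not pass, with r between -0.14 (Tgfbr2) and 0.33 (Tgfbr3), and the lowest adjusted p among them was 0.384.

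**Figure D5:**
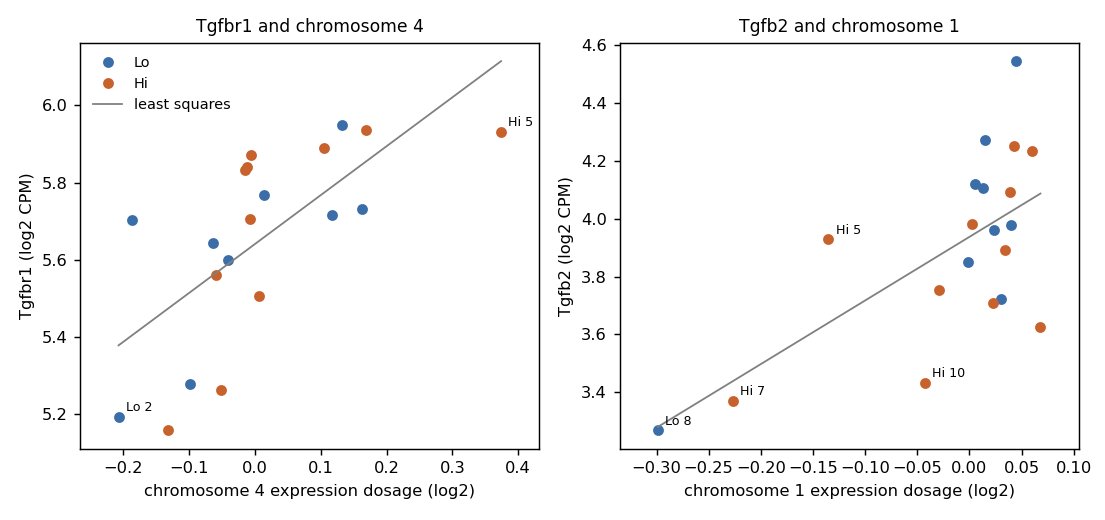
Tgfbr1 against the expression dosage of chromosome 4 (left) and Tgfb2 against that of chromosome 1 (right), both axes in log2 units, with 1 point per tumor, Lo in blue, Hi in orange and a least-squares line in gray. Tgfbr1 is low in Lo 2 and high in Hi 5, the extremes of dosage, while the slope for Tgfb2 rests on Lo 8 and Hi 7.

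Likeness of log2 CPM over the 20 tumors was taken as the highest r among 13831 genes whose mean log2 CPM reached 1. By this measure several of the 9 genes had neighbors on their own chromosome, and no background share was computed. Genes of chromosome 4 were also neighbors of genes on other chromosomes: Sh3bgrl3 of Tgfbr2, Asph and 3110043O21Rik of Tgfbr3, and Ptgr1 of Tgfb2. Among the genes most like Tgfbr1 were Mier1 (r = 0.90), also on chromosome 4, and Pik3r1 (r = 0.89). Tgfb2 was nearest to Ralb on chromosome 1 (r = 0.87), Tspan8 (r = 0.86) and Ptgr1 (r = 0.86). Tgfb3 was nearest to RP24-299H18.2 (r = 0.99), Bmf (r = 0.87), which codes for a pro-apoptotic BH3-only protein, and Btn1a1 (r = 0.84), which codes for butyrophilin of the milk fat globule. Tgfbi was nearest to Hcls1 (r = 0.89), Selplg (r = 0.87) and Fcer1g (r = 0.87), which are expressed in blood cells, and Tgfbr2 to Sh3bgrl3 (r = 0.87), Rac2 (r = 0.84), a GTPase of blood cells, and AF251705 (r = 0.84). Tgfb1 was nearest to Lhpp (r = 0.84) on its own chromosome 7, Rpap3 (r = 0.82) and Csrnp2 (r = 0.82). Tgfbr3 was nearest to Asph (r = 0.76), 3110043O21Rik (r = 0.75) and Itgb3 (r = 0.74). Smad7 was nearest to Zfp574 (r = 0.81), C030039L03Rik (r = 0.80) and Zcchc14 (r = 0.77). Ctgf was nearest to Gm15270 (r = 0.94), Rgl1 (r = 0.84) and Serpinf1 (r = 0.82), which codes for a secreted anti-angiogenic factor.

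The pairs Tgfb3 with RP24-299H18.2 and Ctgf with Gm15270 overlap on the genome (RP24-299H18.2 at 86069173 to 86069779 within Tgfb3 at 86056744 to 86079041 of chromosome 12, and Gm15270 at 24549441 to 24597108 around part of Ctgf at 24595442 to 24598683 of chromosome 10). Ttll5 also overlaps an end of Tgfb3. The strand setting of the counting is not given in the sources used here, so that reads of overlapping genes cannot be told apart. RP24-299H18.2 had a median of 776 counts, Ttll5 1318 and Gm15270 665.

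Of 73 other genes of the pathway on a list, 72 were tested and 0 were called between Lo and Hi. Against the 9 TGF-beta genes, 5 relations passed, all positive, where 0.219% of all relations of the 9 genes passed with a positive r. They joined Tgfbr1 with Zfyve9 (r = 0.82, adjusted p = 0.0183), the Smad anchor for receptor activation, which also lies on chromosome 4, and with the Smad partner Runx1 (r = 0.77, adjusted p = 0.0316), Tgfbi with the smooth muscle gene Tagln (r = 0.76, adjusted p = 0.0338), and Ctgf with the matrix cross-linker Lox (r = 0.77, adjusted p = 0.0415) and the TGF-beta binding proteoglycan Bgn (r = 0.75, adjusted p = 0.0415). The median r over the 72 genes ranged from -0.08 for Smad7 to 0.23 for Tgfbr2.

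Several listed genes followed the fibroblast score, with 12 of 72 called positive and 0 negative, against 207 of 18883 genes (1.1%) positive. The median r was 0.21 over the listed genes and 0.000535 over all genes. Of the induced targets, 8 of 24 passed, among them Col3a1 (r = 0.97), Col1a2 (r = 0.97), Col1a1 (r = 0.93) and Postn (r = 0.89), which code for matrix proteins that fibroblasts produce, and the others were Fn1, Snai2, Twist1 and Lox. Among the 14 latency and activation genes 3 passed, the microfibril gene Fbn1 (r = 0.92), the latent TGF-beta binding protein gene Ltbp4 (r = 0.78) and Lrrc32 (r = 0.77), which tethers latent TGF-beta to cells. Of 16 inhibitors Bgn passed (r = 0.87), and of 8 receptor partners and 10 Smads and nuclear partners none did. None of the 9 TGF-beta genes passed with the fibroblast score, the highest r being 0.62 for Tgfbi (adjusted p = 0.153) and 0.61 for Ctgf. The score was lowest in Lo 3 (-1.95) and highest in Lo 4 (1.72), and Lo 4 had the highest CPM of all 12 called genes. Without these 2 tumors r of Tgfbi with the score was 0.342. The calls of listed genes against the 9 genes, the scores and their chromosomes were not repeated without the 2 farthest tumors.

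The other scores called fewer listed genes. The endothelial score called Zeb1 (r = 0.81), Lrrc32 (r = 0.80), Bgn (r = 0.78) and Ltbp4 (r = 0.74), against 0.715% of all genes positive, and the pericyte score called Acta2 (r = 0.73), the smooth muscle actin, and Ltbp4 (r = 0.72), against 0.334%. Fst, a secreted activin antagonist, passed with the adipocyte score (r = 0.78, 0.143% of all genes positive). The endothelial receptor gene Acvrl1 passed with the epithelial score (r = 0.76, 0.514% positive), and Fstl3, another activin antagonist, with the T cell score (r = -0.76, 0.339% negative). Fst had a median of only 1.19 CPM. Adipocyte markers had medians from 0.153 CPM (Lep) to 64.3 CPM (Pnpla2), and each weighed equally in the score. The macrophage, basal and cycling scores called 0 of 72.

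With their own chromosome, 9 of 70 autosomal listed genes passed with a positive r and 1, Nrros (r = -0.61), with a negative one, where 10.9% and 0.73% of all autosomal genes passed. Among Smads and partners these were Zfyve9 (r = 0.74), Smad5 (r = 0.68) and Trim33 (r = 0.58), among inhibitors Ppm1a (r = 0.77), Fkbp1a (r = 0.66), Skil (r = 0.64) and Tgif2 (r = 0.62), and the others were the type II receptor gene Bmpr2 (r = 0.66) and Junb (r = 0.70).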

How the data were processed

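Libraries from 20 breast tumors gave paired-end reads. The authors cut these to 100 bases and mapped them to mm10 by MapRseq with TopHat2 2.0.12, and the submitters' processing notes also list featureCounts 1.4.4. The deposited file holds whole-number read counts of each gene in each tumor, without normalization. The annotation release and strand setting are not given in the sources used here. Strain variants of BALB/c and FVB/J reads were aligned to a C57BL/6 reference, and their effect on single genes was not tested. Reads carry no molecular identifiers, so intervals cover counting error or the spread of 20 tumors only.

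CPM was computed with edgeR 4.0.16 (filterByExpr, TMM, prior count of 2 on the log2 scale), and Lo and Hi were compared with its quasi-likelihood test in R 4.3.3. DESeq2 1.42.0 was an alternative. RPKM was computed from the counts, the listed gene length and the total. Correlations used Python 3.11.15 with numpy 2.4.6, pandas 2.3.3, scipy 1.17.1 and numba 0.67.0, with 100000 two-sided permutations, Benjamini-Hochberg adjustment over all genes tested and a threshold of 0.05. Intervals of r are from Fisher's transformation. Genes entered the dosage when their mean CPM reached 5. Named genes were the 9 genes, the 3 most like each (a result is not reported here), and in each role of the pathway list up to 4 genes past the threshold with the largest r. The remaining called genes of a role, Mir7671, Ski, Cdkn1a and Eng were named after their values were seen. Foxh1 and the basal marker Krt6a did not pass the filter, and Adgre1 was found under its older symbol Emr1. The scripts were tested on simulated data. The 9 genes and all lists were chosen with earlier results of these data known.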

Additional observations from a re-analysis of the deposited data

How the results depend on the processing

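Of 144 recomputed values with a test, 132 stayed on the same side of the threshold with the same sign, 11 kept their direction but no longer passed, and 1 reversed, Tgfb1 with Tgfb3 at r = -0.0713 without the 2 tumors at the extremes. Most of the 144 were retests of results that had not passed, which had no call to lose. All 11 lost calls were of Tgfbr2 with Tgfbi, the 2 marker score relations and the 2 own-chromosome relations. Another 269 values were r only, with no test: 263 stayed within the 95% interval of the reported r, 3 left it, all with the macrophage score removed, and 3 reversed (Tgfb2 with Tgfbi at -0.135 with that score removed, and Tgfb1 with Tgfb2 at 0.0306 without Lo 4 and 0.00593 without Hi 2, in a range from -0.194). Most of the 269 left out a single tumor. That can hardly move r out of so wide an interval, so the 263 say little about stability. The number of genes called between Lo and Hi was 0, and it was 1 with DESeq2 (Serpina3g) and 1 with no filter on low counts (Mir7671, log2 fold change -6.00, adjusted p = 0.0349); it was 0 without each tumor in turn. The call of Tgfbr2 with Tgfbi was the only one of 36 pairs, and 0 pairs passed with Spearman's rho, with the fibroblast score removed, without the 2 tumors at the extremes of the first gene, or with the replicate block. The adjusted p of Tgfbr2 with Tgfbi ranged from 0.0085 to 0.368 over the alternatives. Of the 2 marker score relations, 0 passed without the 2 farthest tumors, and that of Tgfb3 was also lost on log2(RPKM + 1), at r = 0.552. Of the 2 own-chromosome relations, 1 passed on log2(RPKM + 1) and 1 by Spearman's rho, which was Tgfbr1 in both, and 0 passed without the 2 farthest tumors. The causes were not tested.

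The numbers in the sample names occur once in Lo and once in Hi for 9 numbers. Same-numbered tumors, which came from different mice, had correlations of deviations from -0.359 to 0.269, with 3 of 9 over 0.1. What the numbers mean is not given, and tumors of different numbers were not compared. Whether same-numbered tumors share more than a number was therefore not tested. With the replicate block 0 genes were called between Lo and Hi, as without it on the same 18 tumors. The pair of Tgfbr2 and Tgfbi then had r = 0.865 (adjusted p = 0.368), where whole numbers were permuted. Smad7 then had r = -0.943 with Tgfbi (adjusted p = 0.255), but -0.500 with Tgfb2 and -0.230 with Tgfb3.

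Leaving out each tumor in turn (for marker scores and chromosomes added after seeing the data, r only) gave r from 0.710 (without Lo 3) to 0.801 for Tgfbr2 with Tgfbi, 0.805 to 0.889 for Tgfbi with macrophages, 0.705 to 0.835 for Tgfb3 with epithelial cells, 0.619 to 0.739 for Tgfbr1 with chromosome 4, and 0.520 (without Lo 8) to 0.723 for Tgfb2 with chromosome 1. The median SD of log2 CPM over the 9 genes was 0.263, and 0.238 on log2(RPKM + 1). Counting error was small against these spreads, and the 20 tumors limit the precision.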

Other observations

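Ski, Cdkn1a and Eng had the largest ratios of the highest tumor to the median on the pathway list (4.64, 3.41 and 3.09). They were picked after their values were seen. Ski, a nuclear repressor of Smad signaling, had 617.3 CPM in Hi 1, against a median of 133.0 and a second highest value of 193.0 CPM. Eng, the co-receptor endoglin, was also highest in Hi 1, at 102.2 CPM against a median of 33.1 CPM and a second highest value of 58.0 CPM. Hi 1 was the only tumor with more Tgfb1 than Tgfb3 by RPKM. Cdkn1a, the cell cycle inhibitor p21, was highest in Lo 8 at 238.8 CPM, against a median of 70.0 CPM and a second highest value of 158.7 CPM. Lo 8 was the tumor with the lowest chromosome 1 dosage and the lowest Tgfb2.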
